A study of Mus musculus with 6 samples.

Results

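Mouse bone marrow-derived macrophages given lipopolysaccharide (LPS) together with a preparation labelled HACA were compared with control macrophages, to describe what remained of the LPS response in the presence of HACA. The comparison used 4 of the 6 libraries of the series, 2 labelled control (wild type) and 2 labelled LPS + HACA, and every gene that passed a filter on low counts entered it. The other 2 libraries, from macrophages given LPS alone, were fitted in the same model and are given beside the 4 for scale. HACA is not spelled out in the labels, which also state no dose, time or number of animals and hold no group given HACA alone, and the series title concerns a hyaluronic acid nanomedicine in a mouse model of psoriasis. Whether the 2 libraries of a group stem from different cultures or mice is not said in the labels. The p-values cover the spread between these libraries only, and that spread may be technical.

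LPS is a bacterial membrane component that macrophages sense through the receptor TLR4 with its partners CD14 and MD-2. The adaptor MyD88 leads to NF-kB and to cytokine, chemokine and prostaglandin genes, and the adaptor TRIF leads to IRF3 and to interferon beta. Secreted interferon beta acts back on the cells through its receptor and a complex of STAT factors with IRF9, which binds an interferon-stimulated response element in the promoters of interferon-stimulated genes.

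The control libraries held 13806911 and 13036776 counts, the LPS+HACA libraries 13933604 and 13007575, and the LPS libraries 12529874 and 15379496. The 2 libraries of a group were not copies of each other, since their counts gave a chi-square per degree of freedom of 26.6 in control and 39.3 in LPS+HACA. Levels are given as CPM, counts scaled to a common TMM-adjusted library size, which do not correct for gene length. Of 18 macrophage markers, 16 passed the filter, and none was at 0 in all 4 libraries. The summed level of the 18 was 44765 and 44432 CPM in control against 33614 and 37434 CPM in LPS+HACA, and most of it came from the single gene Lyz2. Their median level was 96.4 and 127 CPM in control against 54.0 and 64.2 CPM in LPS+HACA. The neutrophil markers Ly6g and S100a9, the T and NK cell markers Cd3e, Cd8a, Gzma, Ncr1 and Nkg7, and the B cell markers Cd79b and Pax5 had 0 counts in these 4 libraries. Other members of these lists had counts. Neutrophil markers summed to 14.6 and 49.2 CPM in control and 8.44 and 44.8 CPM in LPS+HACA. T and NK cell markers summed to 20.3 and 48.5 CPM in control and 7.77 and 37.1 CPM in LPS+HACA. B and plasma cell markers summed to 12.3 and 13.8 CPM in control and 15.3 and 8.52 CPM in LPS+HACA. In these bulk libraries fewer cells of a type and less RNA per cell cannot be told apart.

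Against control, 153 genes rose and 44 fell in LPS+HACA among 17113 tested (edgeR quasi-likelihood test, Benjamini-Hochberg adjusted p under 0.05). These are 0.894% and 0.257% of the genes tested, or 1.15% in either direction. The groups did not overlap for any of the 197 genes, where both LPS+HACA libraries lay above both control libraries for 23.4% of all genes and below them for 23.1%. Over all genes tested the median log2 fold change was 0.00, and 2000 genes had an unadjusted p under 0.05. A change above 2-fold was called for 24 genes that rose and 2 that fell (edgeR glmTreat). Protein-coding genes made up 116 of the rises and 39 of the falls.

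The number of calls changed with the libraries in the fit. Where a control or LPS+HACA library was left out, its group had 1 library, which was assumed to vary like the other groups. Without control replicate 1, edgeR called 0 genes, with 1146 at an unadjusted p under 0.05, while limma-voom called 0 and DESeq2 called 169 higher and 26 lower. Without control replicate 2, the 2 genes called were Ptgs2 and Gbp5, both higher. Without LPS+HACA replicate 1, 59 rose and 3 fell, and without LPS+HACA replicate 2, 44 rose and 1 fell. Without LPS replicate 1 or LPS replicate 2, which enter the filter on low counts, the scaling and the shared estimate of spread, 415 and 420 rose and 181 and 186 fell, among 18427 and 18268 genes tested. In each of these 6 edgeR fits all 197 genes kept their direction. The 197 were called on these same libraries and did not overlap between the groups. Leaving out 1 library could therefore hardly turn a direction, and the kept directions are not a separate check. The bar plot of calls with each library left out gives the numbers called.

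**Figure D1:**
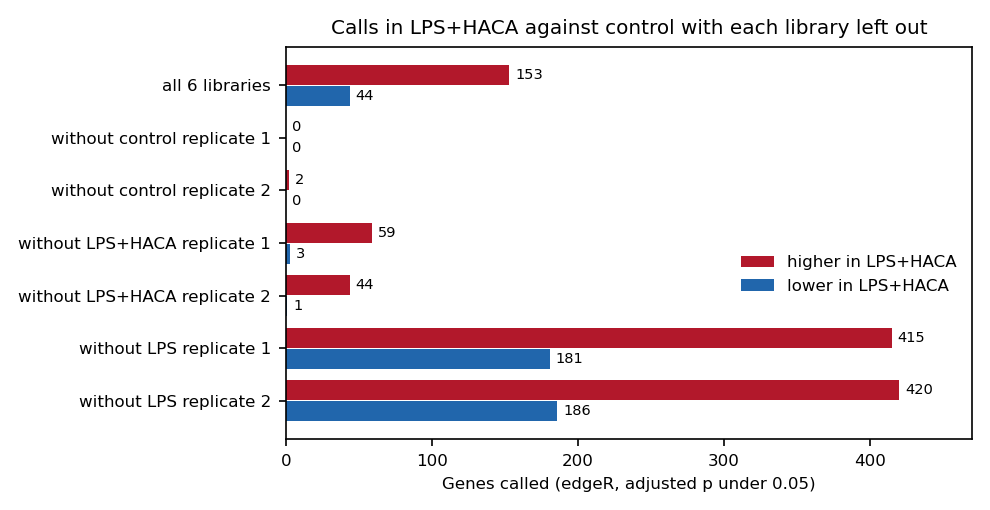
Number of genes called higher (red) and lower (blue) in LPS+HACA than in control by the edgeR quasi-likelihood test, with all 6 libraries and with each library left out in turn. The count fell from 153 higher and 44 lower to 0 and 0 without control replicate 1, and rose to 415 or 420 higher without an LPS library.

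Calls were most frequent among well-measured genes. With the genes in 4 equal bins by mean level, 0.164% were called in the lowest bin and 2.08% in the highest. The median standard error of a log2 fold change was 0.67 in the lowest bin and 0.25 in the highest. For 4964 genes, 29.0% of those tested, the 95% interval lay within a 2-fold change either way.

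**Figure D2:**
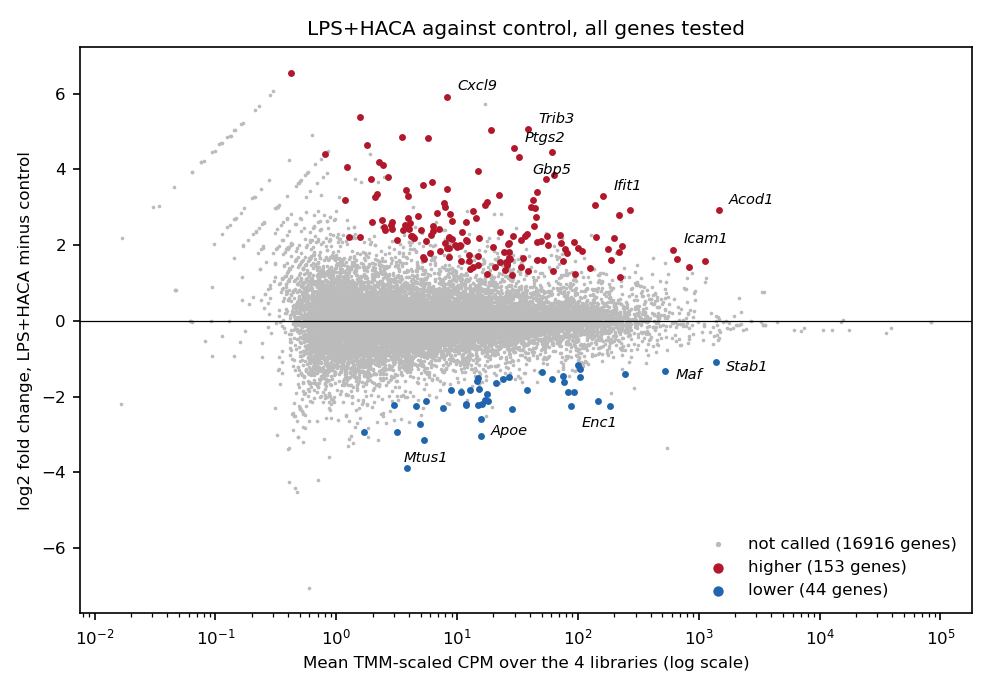
Log2 fold change of LPS+HACA against control (vertical axis) against the mean level of the 4 libraries in CPM (horizontal axis, log scale), with 1 point per gene tested. The 153 genes called higher (red) reach a log2 fold change of 6.55 and the 44 called lower (blue) reach -3.88, beside 16916 genes not called (grey).

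Interferon-stimulated genes, the antiviral and GTPase genes switched on by interferon signalling, made up the largest group of rises among the 30 pathway lists. All 40 listed members passed the filter, 24 rose and none fell by edgeR, and DESeq2 and limma-voom called 31 and 22 higher and none lower. At an unadjusted p under 0.05, 36 were higher and 0 lower. In 39 of the 40 both LPS+HACA libraries lay above both control libraries (23.4% over all genes), and all 40 fold changes were positive. The median log2 fold change was 2.02 against 0.00 over all genes tested, and the median of the same genes in LPS against control, which shares the control libraries, was 3.58. The number called was 0 without control replicate 1, 1 without control replicate 2, 11 and 12 without LPS+HACA replicates 1 and 2, and 30 without either LPS library.

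Promoters of 5 genes that rose are printed to show the interferon-stimulated response element upstream of them: the antiviral genes Ifit1, Isg15 and Rsad2, the chemokine gene Cxcl10 and the GTPase gene Gbp2. Each is the 220 bases before the RefSeq start site in GRCm38.p6, 5′ to 3′ on the strand of the gene, and capitals mark each match to GAAA, any 2 bases and GAAA, or on the other strand TTTC, any 2 bases and TTTC. Ifit1 is at chr19:34640669-34640888 on the plus strand, Isg15 at chr4:156200819-156201038 on the minus strand, Rsad2 at chr12:26456453-26456672 on the minus strand, Cxcl10 at chr5:92348890-92349109 on the minus strand, and Gbp2 at chr3:142620443-142620662 on the plus strand.
Ifit1: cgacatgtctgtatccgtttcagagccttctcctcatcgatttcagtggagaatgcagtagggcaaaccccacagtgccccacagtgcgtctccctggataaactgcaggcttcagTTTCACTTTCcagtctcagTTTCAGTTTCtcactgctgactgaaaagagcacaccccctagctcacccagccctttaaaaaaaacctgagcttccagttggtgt
Isg15: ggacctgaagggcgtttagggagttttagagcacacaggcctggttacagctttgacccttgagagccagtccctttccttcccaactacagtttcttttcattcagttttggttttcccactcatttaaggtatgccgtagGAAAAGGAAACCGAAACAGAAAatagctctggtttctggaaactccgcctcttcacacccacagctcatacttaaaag
Rsad2: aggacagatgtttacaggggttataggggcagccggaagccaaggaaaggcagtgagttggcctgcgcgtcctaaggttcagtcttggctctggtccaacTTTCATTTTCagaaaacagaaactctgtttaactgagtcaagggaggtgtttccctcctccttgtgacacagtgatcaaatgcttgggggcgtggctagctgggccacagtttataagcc
Cxcl10: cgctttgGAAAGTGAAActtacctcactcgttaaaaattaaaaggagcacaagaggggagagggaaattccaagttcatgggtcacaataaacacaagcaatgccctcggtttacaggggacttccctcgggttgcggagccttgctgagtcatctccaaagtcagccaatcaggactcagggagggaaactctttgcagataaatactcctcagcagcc
Gbp2: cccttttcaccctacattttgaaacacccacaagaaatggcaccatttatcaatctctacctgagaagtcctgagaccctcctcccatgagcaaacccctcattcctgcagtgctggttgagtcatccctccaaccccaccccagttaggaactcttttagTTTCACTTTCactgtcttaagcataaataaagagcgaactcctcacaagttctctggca

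The 2 matches of Ifit1 lay at -104 to -95 and -85 to -76 from the start, and the 3 of Isg15 overlapped one another between -78 and -57. The single match was at -120 to -111 in Rsad2, at -213 to -204 in Cxcl10 and at -59 to -50 in Gbp2. Over windows of 250 bases before to 50 after the start, searched on both strands, the element was found in 1079 of 27025 genes with a RefSeq promoter (3.99%). It was found in 20 of the 100 genes called higher that had a promoter entry, and in 2 of the 26 called lower (7.69%). Within the interferon-stimulated list it was found in 9 of 18 members that rose and in 11 of 13 members that were not called. An NF-kB element, spelled GGG, any 2 bases and TTTCC, or on the other strand GGAAA, any 2 bases and CCC, was found in 5 of the 100 genes called higher, in 0 of the 26 called lower and in 1.90% of all genes. A match is a run of letters in a window, not a measured binding site.

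Ifit1, whose product binds viral RNA that lacks a host cap, was at 29.9 and 30.0 CPM in control, 345 and 239 CPM in LPS+HACA, and 1971 and 892 CPM in LPS. It rose by 3.29 ± 0.39 on the log2 scale in LPS+HACA against control (SE, n = 2 libraries per group, edgeR adjusted p = 0.0146). The levels of the LPS+HACA libraries lay between those of the other 2 groups with no overlap. Rsad2, which encodes the antiviral enzyme viperin, was at 1.76 and 1.85 CPM in control, 30.5 and 26.0 CPM in LPS+HACA, and 170 and 101 CPM in LPS. It rose by 3.96 ± 0.33 on the log2 scale (edgeR adjusted p = 0.00532). Mx1, a GTPase that blocks influenza viruses, was at 7.53 and 7.74 CPM in control and 113 and 90.1 CPM in LPS+HACA, a log2 fold change of 3.73 ± 0.28 (edgeR adjusted p = 0.00364). For all 3 genes the call was lost without control replicate 1 and without control replicate 2, with adjusted p-values of at most 0.237 over the 6 fits, and held without each of the other 4 libraries.

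The guanylate-binding proteins are GTPases that attack vacuoles holding microbes. Gbp5, which also promotes inflammasome assembly, was at 2.57 and 3.64 CPM in control, 62.4 and 62.5 CPM in LPS+HACA, and 309 and 286 CPM in LPS. It rose by 4.33 ± 0.26 on the log2 scale (edgeR adjusted p = 0.00167), and its call was lost only without control replicate 1 (adjusted p = 0.0768). Gbp2 was at 49.6 and 61.6 CPM in control and 362 and 407 CPM in LPS+HACA, a log2 fold change of 2.79 ± 0.21 (edgeR adjusted p = 0.00364). Its call was lost without either control library. Gbp6 had a log2 fold change of 3.66 ± 0.42 and an edgeR adjusted p of 0.0126, but it is uncertain, since 76.5% of its 50-base words also occur in other genes such as Gbp10, and its log2 fold change was 4.34 without control replicate 2. Among other rises of uncertain assignment, Ifit3 shared 51.2% of its words with Ifit3b. Iigp1, a GTPase of the immunity-related family, was at 0.125 and 0.661 CPM in control and 13.2 and 9.20 CPM in LPS+HACA, a log2 fold change of 4.82 ± 0.67 (edgeR adjusted p = 0.0209). The call of Iigp1 was lost without each of the control and LPS+HACA libraries in turn and with limma-voom (adjusted p = 0.0565), and its log2 fold change was 4.05 without control replicate 1 and 6.38 without control replicate 2.

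Not every member of the list was called. Among factors of the interferon receptor pathway, Irf7 and Irf1 rose, by 2.44 ± 0.29 and 1.81 ± 0.32 on the log2 scale. Stat2 had a log2 fold change of 1.05 with a 95% interval of 0.47 to 1.62, and Irf9 one of 0.67 with an interval of 0.05 to 1.29. The smallest value was that of Bst2, which encodes tetherin, a protein that holds budding virus at the cell surface. Bst2 was at 51.1 and 54.8 CPM in control, 60.7 and 65.4 CPM in LPS+HACA, and 126 and 139 CPM in LPS, and its log2 fold change was 0.25 with an interval of -0.21 to 0.72. The plot of the list by library shows both ends of this range. Irf7, Irf1, Stat2, Irf9 and Bst2 fall outside the rule for named genes and were chosen after their values were seen. The calls of Irf7 and Irf1 are among those lost without control replicate 1.

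**Figure D3:**
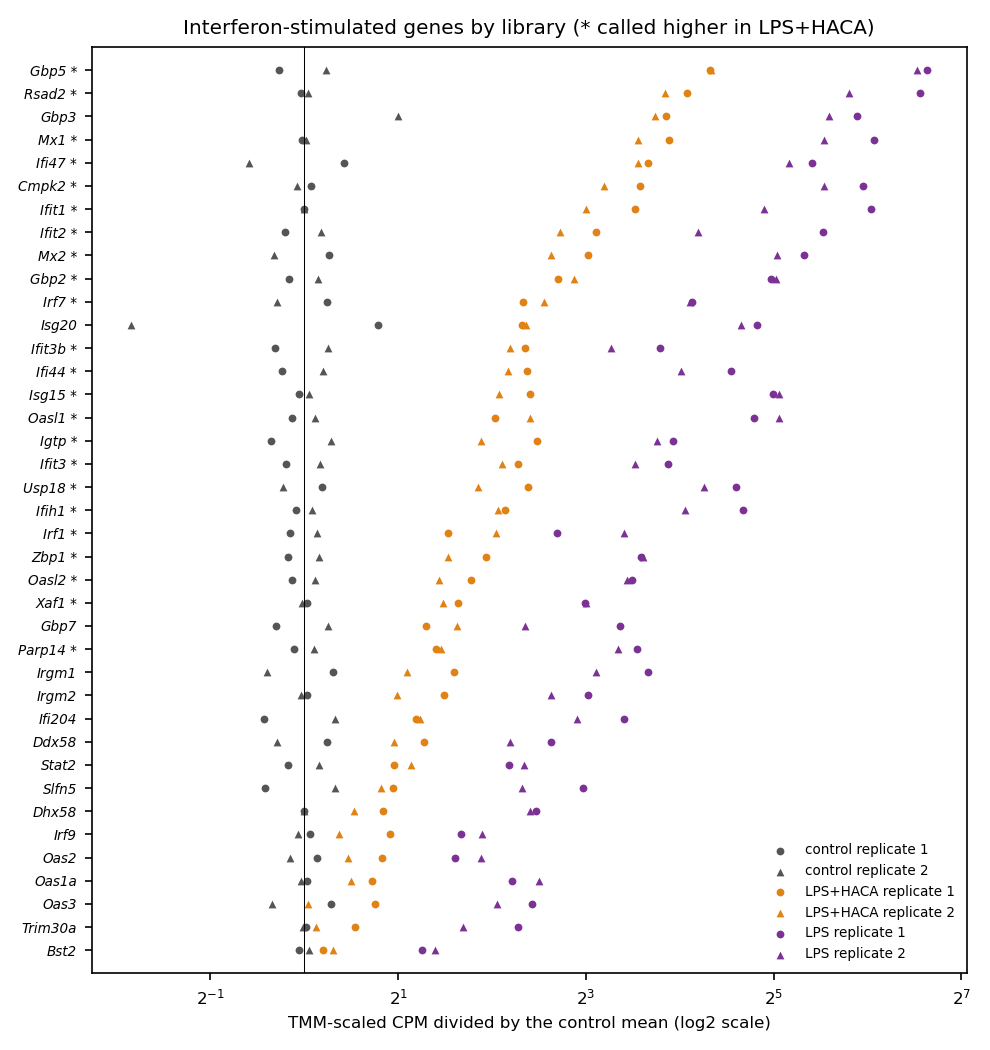
Level of 39 of the 40 interferon-stimulated genes in each library divided by the mean of the control libraries (log2 scale), for control (grey), LPS+HACA (orange) and LPS (purple), with replicate 1 as circles and replicate 2 as triangles. Genes are ordered by log2 fold change of LPS+HACA against control, from Gbp5 (62.4 and 62.5 CPM against 2.57 and 3.64 CPM in control) to Bst2 (60.7 and 65.4 CPM against 51.1 and 54.8 CPM), and an asterisk marks the 23 of these called higher.

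Interferon beta itself was near the floor of detection in control. Ifnb1 was at 0.125 and 0 CPM in control, 1.82 and 1.28 CPM in LPS+HACA, and 16.5 and 13.5 CPM in LPS. These are 2 counts over both control libraries and 49 over both LPS+HACA libraries, a ratio of LPS+HACA over control of 24.3 with an exact 95% interval of 6.39 to 207, which covers counting error only. The gene passed the test (edgeR adjusted p = 0.034), and the call of Ifnb1 was lost without each of the control and LPS+HACA libraries in turn, with library totals and with limma-voom (adjusted p = 0.106).

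Chemokine genes also rose. Of 15 listed members tested, 5 rose and none fell by edgeR, and 12 had both LPS+HACA libraries above both control libraries (23.4% over all genes). DESeq2 called 7 higher and limma-voom 5, with none lower. At an unadjusted p under 0.05 in edgeR, 9 were higher and 1 lower. The median log2 fold change was 2.49, beside 6.42 for the same genes in LPS against control. Without a control library none of the 15 was called, and without an LPS+HACA library 3 were called.

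The 2 chemokines with the largest rises were Cxcl9 and Cxcl10, interferon-induced ligands of CXCR3, a chemokine receptor on T cells. Cxcl9 was at 0.125 and 0.397 CPM in control, 19.4 and 12.9 CPM in LPS+HACA, and 108 and 74.2 CPM in LPS. It rose by 5.92 ± 0.50 on the log2 scale (edgeR adjusted p = 0.00532) from 8 counts in control to 511 in LPS+HACA. Cxcl10 was at 1.38 and 0.860 CPM in control, 38.7 and 35.2 CPM in LPS+HACA, and 189 and 121 CPM in LPS. Its log2 fold change was 5.03 ± 0.36 (edgeR adjusted p = 0.00364). Art3 overlaps Cxcl10 on the other strand and had a log2 fold change of 4.85, and since the strand setting of the counting is not given, reads of this pair cannot be told apart. The calls of Cxcl9 and Cxcl10 were lost without either control library and held without each other library, and the log2 fold change of Cxcl9 was 5.31 without control replicate 1 and 6.91 without control replicate 2.

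The CC chemokines Ccl3, Ccl4 and Ccl5 attract monocytes and T cells. Ccl5 was at 1.94 and 6.22 CPM in control, 35.3 and 45.8 CPM in LPS+HACA, and 681 and 886 CPM in LPS, a log2 fold change of 3.31 ± 0.51 in LPS+HACA against control (edgeR adjusted p = 0.0353). Its call was lost without each of the 6 libraries in turn, with adjusted p-values of 0.0823 to 0.162 and log2 fold changes of 2.69 without control replicate 1 and 4.38 without control replicate 2. Ccl4 was at 13.4 and 12.9 CPM in control and 91.2 and 56.8 CPM in LPS+HACA, and Ccl3 at 32.9 and 39.6 CPM against 130 and 122 CPM. Their log2 fold changes were 2.49 ± 0.28 and 1.80 ± 0.26, and both were chosen after their values were seen. Cxcl1, a neutrophil-attracting chemokine, was at 0.376 and 1.52 CPM in control and 5.83 and 9.53 CPM in LPS+HACA. It did not pass the edgeR test, with a log2 fold change of 3.01 and a 95% interval of 1.56 to 4.47 (edgeR adjusted p = 0.0839).

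Of 17 proinflammatory cytokine genes tested, 4 rose and none fell by edgeR. The median log2 fold change was 1.004 beside 6.80 in LPS against control. The 4 called by edgeR were Tnf, Ifnb1, Csf1 and Il27. DESeq2 called 5 higher and limma-voom 2, with none lower. No member was called without a control library, 3 were called without LPS+HACA replicate 1 and 1 without LPS+HACA replicate 2.

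Tnf, the cytokine that drives much of acute inflammation and a drug target in psoriasis, was at 7.47 and 12.3 CPM in control, 65.5 and 91.2 CPM in LPS+HACA, and 998 and 2046 CPM in LPS. It rose by 2.99 ± 0.42 on the log2 scale (edgeR adjusted p = 0.0222). The LPS+HACA libraries lay above both control libraries and below both LPS libraries. The call was lost without either control library and without LPS+HACA replicate 2, with adjusted p-values of at most 0.255. Il27, a cytokine subunit that acts on T cells, was at 3.26 and 3.44 CPM in control and 21.3 and 19.6 CPM in LPS+HACA, a log2 fold change of 2.61 ± 0.33. Csf1, the macrophage growth factor, was at 0.753 and 0.860 CPM in control and 4.25 and 5.61 CPM in LPS+HACA, a log2 fold change of 2.60 ± 0.36. Il27 and Csf1 were chosen after their values were seen.

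Other cytokines that LPS induces did not pass the test against control. Il1b, which encodes interleukin 1 beta, was at 13.9 and 23.02 CPM in control, 30.3 and 61.0 CPM in LPS+HACA, and 1894 and 6921 CPM in LPS. Its log2 fold change was 1.31 ± 0.71 with a 95% interval of -0.49 to 3.10 (edgeR adjusted p = 0.598). The groups did not overlap. Il6, another classical cytokine, was covered by 2 control counts and 18 LPS+HACA counts, a ratio of LPS+HACA over control of 8.94 with an exact 95% interval of 2.14 to 79.5 and an edgeR adjusted p of 0.177. Il12b, the subunit shared by interleukins 12 and 23, had 0 counts in control and 4 in LPS+HACA, and stood at 36.7 and 52.6 CPM in LPS. With 3 counts in control in place of 0, the ratio of LPS+HACA over control would be 1.32, which is not a lower bound. DESeq2 gave Il12b an adjusted p of 0.328. Il23a, the subunit particular to interleukin 23, was at 0.188 and 0.331 CPM in control and 0.121 and 0.473 CPM in LPS+HACA, so the groups overlapped. At this depth no difference in Il23a was detectable.

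Ptgs2 encodes cyclooxygenase 2, the inducible enzyme of prostaglandin synthesis, and had the smallest adjusted p of all genes. It was at 2.07 and 2.71 CPM in control, 51.4 and 62.1 CPM in LPS+HACA, and 6881 and 7729 CPM in LPS. It rose by 4.57 ± 0.25 on the log2 scale (edgeR adjusted p = 0.00163), and its call was lost only without control replicate 1 (adjusted p = 0.0768). By edgeR it was the only called member of 17 prostanoid and leukotriene genes, whose median log2 fold change was 0.02. DESeq2 called 2 members higher and 1 lower, and limma-voom 1 higher and 0 lower. Ptgs1, the constitutive cyclooxygenase, was at 4.96 and 6.02 CPM in control and 1.58 and 1.15 CPM in LPS+HACA, with a log2 fold change of -1.997 and a 95% interval of -3.04 to -0.95 (edgeR adjusted p = 0.0977). It passed the threshold with DESeq2 (adjusted p = 0.0148) and edgeR on only the 4 libraries (adjusted p = 0.0311). It did not pass with limma-voom (adjusted p = 0.0537) or edgeR with library totals (adjusted p = 0.128).

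Among 20 classical activation markers 3 rose by edgeR: Nos2, Cd40 and Acod1. DESeq2 called 6 higher and limma-voom 4, with none lower. Nos2, the inducible nitric oxide synthase, was at 0.314 and 0.198 CPM in control, 5.83 and 3.38 CPM in LPS+HACA, and 96.1 and 65.8 CPM in LPS, a log2 fold change of 4.12 ± 0.46 (edgeR adjusted p = 0.012). Acod1, which makes the antimicrobial metabolite itaconate, was at 240 and 441 CPM in control, 2244 and 2912 CPM in LPS+HACA, and 20481 and 29355 CPM in LPS. It rose by 2.92 ± 0.35 on the log2 scale (edgeR adjusted p = 0.0143). Cd40, the receptor for T cell help, was at 1.25 and 1.46 CPM in control and 13.2 and 17.2 CPM in LPS+HACA, a log2 fold change of 3.48 ± 0.34 (edgeR adjusted p = 0.00767). For all 3 genes the libraries of the groups did not overlap, and their calls were lost without either control library and held without each other library. With limma-voom the call of Nos2 was lost (adjusted p = 0.0736). Cd86, a costimulatory ligand, was at 22.5 and 50.1 CPM in control and 34.4 and 72.4 CPM in LPS+HACA, and these overlapped.

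Of 25 NF-kB subunit and feedback genes tested 3 rose and none fell by edgeR, and 23 had both LPS+HACA libraries above control (23.4% over all genes). DESeq2 called 10 higher and limma-voom 4, with none lower. The median log2 fold change was 0.96 beside 2.40 in LPS against control. Nfkbiz, an atypical NF-kB inhibitor that also activates secondary response genes, was at 1.88 and 3.17 CPM in control and 14.03 and 17.2 CPM in LPS+HACA (log2 fold change 2.62 ± 0.33, edgeR adjusted p = 0.0157). Socs3, a suppressor of cytokine receptor signalling, rose by 2.21 ± 0.28 and Tnfaip3, the ubiquitin editor A20, by 1.996 ± 0.31 on the log2 scale. Nfkbia, the inhibitor IkB alpha, was at 194 and 224 CPM in control, 427 and 490 CPM in LPS+HACA, and 1461 and 1941 CPM in LPS. It missed the threshold with a log2 fold change of 1.14 and a 95% interval of 0.63 to 1.64 (edgeR adjusted p = 0.0628), and passed it without either LPS library. Nfkbia also passed with DESeq2 (adjusted p = 0.00111) and limma-voom (adjusted p = 0.0466). In edgeR it passed with library totals (adjusted p = 0.0494) and only the 4 libraries (adjusted p = 0.0183), but not with upper-quartile factors (adjusted p = 0.0830). None of the list was called without a control library, and 1 was called without each LPS+HACA library, Nfkbiz without replicate 1 and Socs3 without replicate 2.

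None of the 22 parts of the TLR4 receptor and its signalling was called by edgeR, with 4 higher and 1 lower at an unadjusted p under 0.05, while DESeq2 called 2 higher and limma-voom 1. Their median log2 fold change was 0.28. Tlr4 was at 158 and 151 CPM in control, 123 and 134 CPM in LPS+HACA, and 133 and 112 CPM in LPS. Its log2 fold change of -0.26 had a 95% interval of -0.73 to 0.21, which lay within a 2-fold change either way. This interval covers the spread between these libraries only. Cd14, the co-receptor that hands LPS to TLR4, was at 331 and 420 CPM in control, 575 and 779 CPM in LPS+HACA, and 2785 and 5262 CPM in LPS, with a log2 fold change of 0.85 and an interval of 0.11 to 1.59 (edgeR adjusted p = 0.343). In the edgeR fits without an LPS library 2 members of the list were called higher.

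**Figure D4:**
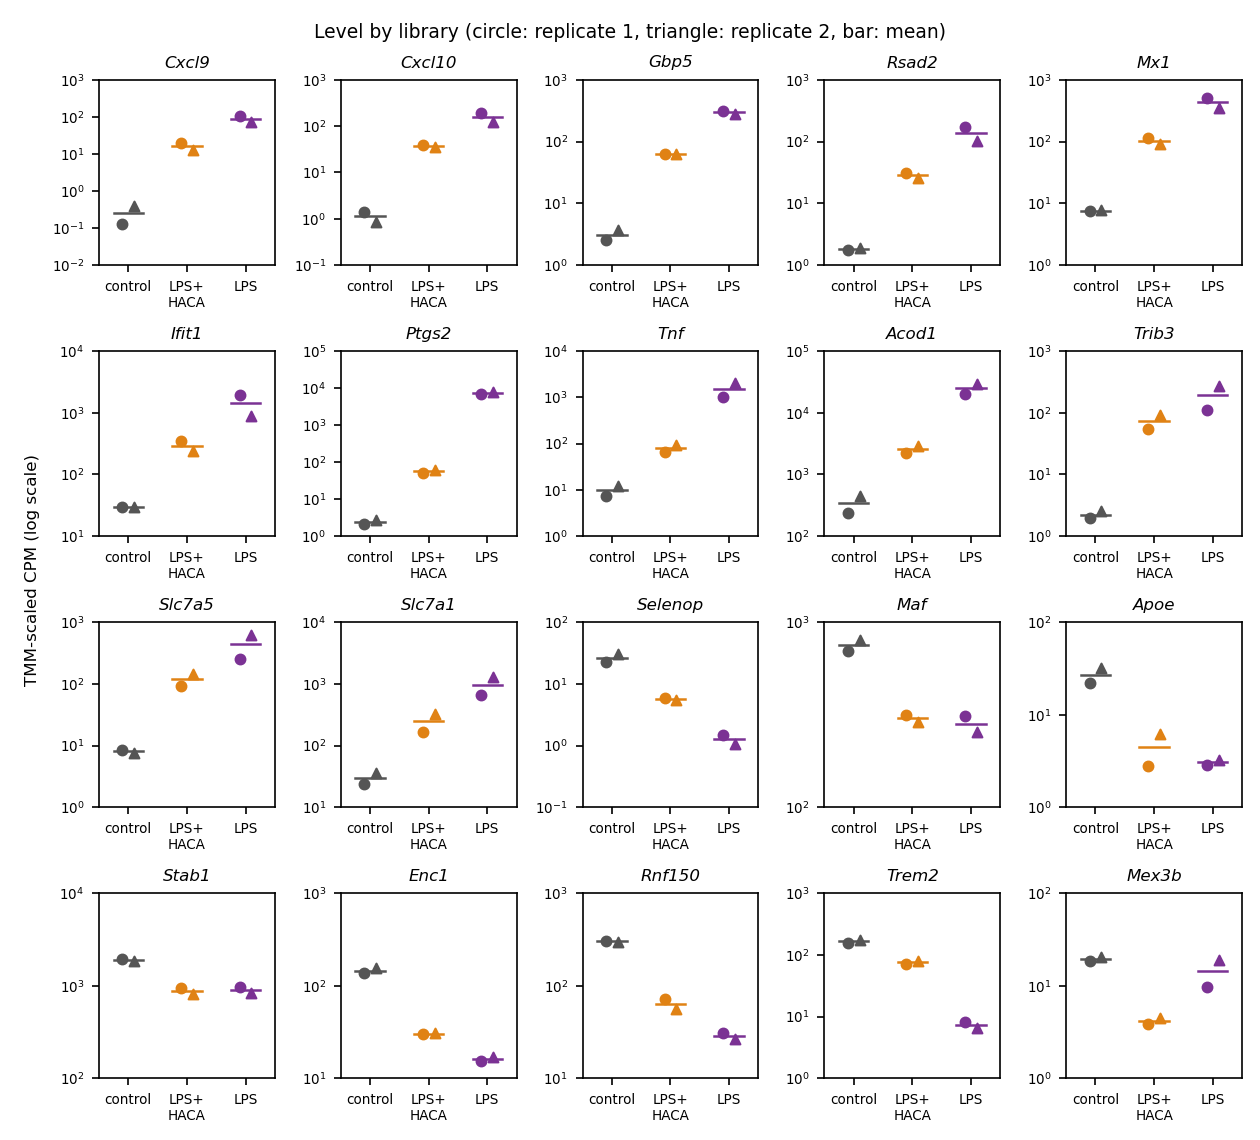
Level in CPM (log scale, ranges differ between panels) of 20 genes in control (grey), LPS+HACA (orange) and LPS (purple), with replicate 1 as a circle, replicate 2 as a triangle and the mean as a bar. In Ptgs2 the LPS+HACA libraries stand at 51.4 and 62.1 CPM between control at 2.07 and 2.71 CPM and LPS at 6881 and 7729 CPM, and in Maf both treated groups stand below control.

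The integrated stress response couples amino acid shortage and other stress to the factor ATF4 and its targets. Of 24 members tested 4 rose and none fell by edgeR, and 20 had both LPS+HACA libraries above both control libraries (23.4% over all genes). DESeq2 called 9 higher and limma-voom 4, with none lower. The median log2 fold change was 1.63 beside 2.80 in LPS against control. Trib3, a pseudokinase that restrains this response, was at 1.94 and 2.51 CPM in control, 55.2 and 93.7 CPM in LPS+HACA, and 111 and 275 CPM in LPS. It rose by 5.06 ± 0.53 on the log2 scale (edgeR adjusted p = 0.0115). Slc7a5, a transporter of large neutral amino acids, was at 8.59 and 7.61 CPM in control and 92.2 and 144 CPM in LPS+HACA, a log2 fold change of 3.86 ± 0.46 (edgeR adjusted p = 0.0147). The other 2 edgeR rises were Mthfd2, an enzyme of mitochondrial folate metabolism, at 3.002 ± 0.30, and Aars, the alanyl-tRNA synthetase, at 1.89 ± 0.28. Both were chosen after their values were seen.

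Atf4 itself was at 8.59 and 11.9 CPM in control and 9.78 and 13.05 CPM in LPS+HACA, and these overlapped. Its log2 fold change was 0.15 with a 95% interval of -0.75 to 1.06. Chac1, which breaks down glutathione, was at 0.565 and 0.661 CPM in control and 13.6 and 52.6 CPM in LPS+HACA. It was not called, with a log2 fold change of 5.73 and a 95% interval of 3.11 to 8.36 (edgeR adjusted p = 0.097). Atf4 and Chac1 were also chosen after their values were seen. Without a control library none of the 24 was called, and 5 and 3 were called without LPS+HACA replicates 1 and 2. Outside the list, the arginine transporter gene Slc7a1 was at 23.5 and 35.9 CPM in control and 168 and 323 CPM in LPS+HACA, a log2 fold change of 3.05 ± 0.46 (edgeR adjusted p = 0.0311). Its call was lost without either control library and without LPS+HACA replicate 2.

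Antigen presentation through MHC class I had 2 rises among 19 members: Tapbp, the peptide loading chaperone tapasin, and Psme2, a proteasome activator subunit. Tapbp was at 3.20 and 3.11 CPM in control and 10.1 and 12.5 CPM in LPS+HACA, a log2 fold change of 1.84 ± 0.27 (edgeR adjusted p = 0.0238). Psme2 had a log2 fold change of 1.92 ± 0.31, and 46.9% of its 50-base words also occur in other genes, so it is uncertain. The median of the list was 1.13, and 14 members lay above control in both libraries (23.4% over all genes). B2m, the light chain of MHC class I, was at 1313 and 1445 CPM in control and 1225 and 1530.5 CPM in LPS+HACA, a log2 fold change of -0.0012 with a 95% interval of -0.48 to 0.48, and was chosen after its values were seen. Neither call held without any of the control or LPS+HACA libraries. Casp4, the caspase that senses cytosolic LPS, was the only edgeR call among 19 inflammasome and pyroptosis genes. It was at 10.4 and 10.5 CPM in control and 39.4 and 46.7 CPM in LPS+HACA (log2 fold change 2.04 ± 0.26, edgeR adjusted p = 0.0165). It was not called without either control library or without LPS+HACA replicate 2.

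Further rises outside these lists, or shared with them, were chosen by size. Cd69, an early activation marker of leukocytes, was at 6.65 and 4.10 CPM in control and 138 and 97.4 CPM in LPS+HACA, a log2 fold change of 4.45 ± 0.41 (edgeR adjusted p = 0.00767). In absolute CPM the largest rises included the adhesion molecule gene Icam1, from 255 and 272 CPM to 912 and 1029.7 CPM (1.88 ± 0.20), and the chloride channel protein gene Clic4, from 313 and 327 CPM to 970 and 1018 CPM (1.63 ± 0.24). The stress kinase gene Mapkapk2 rose from 535 and 597 CPM to 1649 and 1739 CPM, by 1.58 ± 0.20 on the log2 scale. All 4 calls were lost without either control library, and those of Clic4 and Mapkapk2 also without either LPS+HACA library.

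Of the 16 macrophage markers tested 2 fell, and the median log2 fold change of the list was -0.40. Maf, a transcription factor that keeps macrophages mature and out of the cell cycle, was at 700 and 806 CPM in control, 315 and 289 CPM in LPS+HACA, and 310 and 255 CPM in LPS, a log2 fold change of -1.32 ± 0.21 (edgeR adjusted p = 0.0291). Both LPS+HACA libraries lay below both control libraries, and the log2 fold change of Maf in LPS against control was -1.41. The lysozyme gene Lyz2 was at 40427 and 38740.2 CPM in control and 30358 and 32899 CPM in LPS+HACA, with a log2 fold change of -0.32 and a 95% interval of -0.77 to 0.12, and Csf1r, the receptor for the macrophage growth factor, had one of 0.40 with an interval of -0.28 to 1.08. Lyz2 and Csf1r were chosen after their values were seen.

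Apoe, which carries cholesterol out of macrophages, was at 21.96 and 31.9 CPM in control, 2.79 and 6.22 CPM in LPS+HACA, and 2.86 and 3.275 CPM in LPS. It fell by 2.58 on the log2 scale (SE 0.42, edgeR adjusted p = 0.033). Apoe was the only edgeR call among 15 TREM2 and lipid-associated genes and among 12 LXR targets. DESeq2 called 3 of the 15 and 2 of the 12 lower. With limma-voom 2 of the 15 and 2 of the 12 were lower, and neither tool called any higher. Trem2, a lipid-sensing receptor of macrophages, was at 155 and 178 CPM in control, 70.7 and 80.9 CPM in LPS+HACA, and 8.18 and 6.55 CPM in LPS. It missed the threshold with a log2 fold change of -1.13 and a 95% interval of -1.65 to -0.62 (edgeR adjusted p = 0.0659), and passed it without either LPS library. Trem2 also passed with DESeq2 (adjusted p = 0.000431), limma-voom (adjusted p = 0.0433) and edgeR on only the 4 libraries (adjusted p = 0.0235). It did not pass in edgeR with library totals (adjusted p = 0.122) or upper-quartile factors (adjusted p = 0.0578). Selenop, a selenium transport protein, was at 22.7 and 30.0 CPM in control and 6.01 and 5.48 CPM in LPS+HACA, a log2 fold change of -2.20 ± 0.29 (edgeR adjusted p = 0.0185).

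Stab1 encodes a scavenger receptor of macrophages and was put on the list of hyaluronan receptors and enzymes. Whether its product binds hyaluronan was not tested. It was the only edgeR call among the 15 members tested. It was at 1934 and 1842 CPM in control, 947 and 820 CPM in LPS+HACA, and 979 and 839 CPM in LPS, and fell by 1.10 on the log2 scale (SE 0.20, edgeR adjusted p = 0.0466). The median of the list was -0.26. In both libraries 5 members lay above control and 3 below it, beside 23.4% and 23.1% of all genes tested. Cd44, the main hyaluronan receptor of leukocytes, was at 28.8 and 37.8 CPM in control, 25.2 and 27.5 CPM in LPS+HACA, and 74.9 and 74.1 CPM in LPS. Its log2 fold change was -0.34 with a 95% interval of -0.87 to 0.19, which lay within a 2-fold change either way. Tnfaip6, a hyaluronan-binding protein, had 6 counts in control and 3 in LPS+HACA, a ratio of control over LPS+HACA of 2.01 with an exact 95% interval of 0.43 to 12.4, and no difference was detectable at this depth. Tlr2, another receptor reported to sense hyaluronan fragments, was at 768 and 711 CPM in control and 1354 and 1642 CPM in LPS+HACA (log2 fold change 1.02, 95% interval 0.56 to 1.47, edgeR adjusted p = 0.0628) and was chosen after its values were seen.

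Other large falls were in genes of varied function. Mtus1, a microtubule-associated gene, was at 12.4 and 6.88 CPM in control and 1.09 and 1.08 CPM in LPS+HACA, and had the lowest log2 fold change of the named genes, -3.13 ± 0.41 (edgeR adjusted p = 0.0182). Enc1, an actin-binding adaptor, was at 136 and 155 CPM in control, 30.2 and 30.7 CPM in LPS+HACA, and 15.4 and 17.0 CPM in LPS (log2 fold change -2.26 ± 0.22, edgeR adjusted p = 0.00767). Rnf150, a ring finger gene, was at 303 and 302 CPM in control and 71.4 and 56.7 CPM in LPS+HACA (-2.24 ± 0.22, edgeR adjusted p = 0.00954). Pdxk, the kinase that activates vitamin B6, was at 358 and 351 CPM in control and 145 and 124 CPM in LPS+HACA (-1.40 ± 0.25, edgeR adjusted p = 0.0444). The inhibitory receptor gene Cd300lf fell by 2.71, and the other named falls were Nxpe5, Tmem37, Arrdc3, Abhd15, Rab3il1, Zdhhc14 and Tmem86a, with log2 fold changes of -3.04 to -1.48. Of all named falls, none was called without a control library. Enc1 and Rnf150 were called without LPS+HACA replicate 1 and Apoe without LPS+HACA replicate 2, and the other named falls were lost without either of those libraries. The log2 fold change of Apoe was -3.26 without LPS+HACA replicate 2, and that of Cd300lf -1.96 without control replicate 1. With library totals in place of TMM factors, the calls of Maf, Stab1, Pdxk, Cd300lf, Nxpe5, Arrdc3 and Tmem86a were lost, and that of Cd300lf also with limma-voom.

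Mex3b, an RNA-binding ubiquitin ligase, was the only named gene also called in the same direction against LPS. It was at 18.7 and 20.4 CPM in control, 3.83 and 4.46 CPM in LPS+HACA, and 9.65 and 19.0 CPM in LPS. It fell by 2.24 on the log2 scale against control (SE 0.36, edgeR adjusted p = 0.0336), and its log2 fold change against LPS was -1.79 (edgeR adjusted p = 0.0195). The 2 comparisons share the LPS+HACA libraries. The call against control was lost without each of the control and LPS+HACA libraries in turn.

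**Figure D5:**
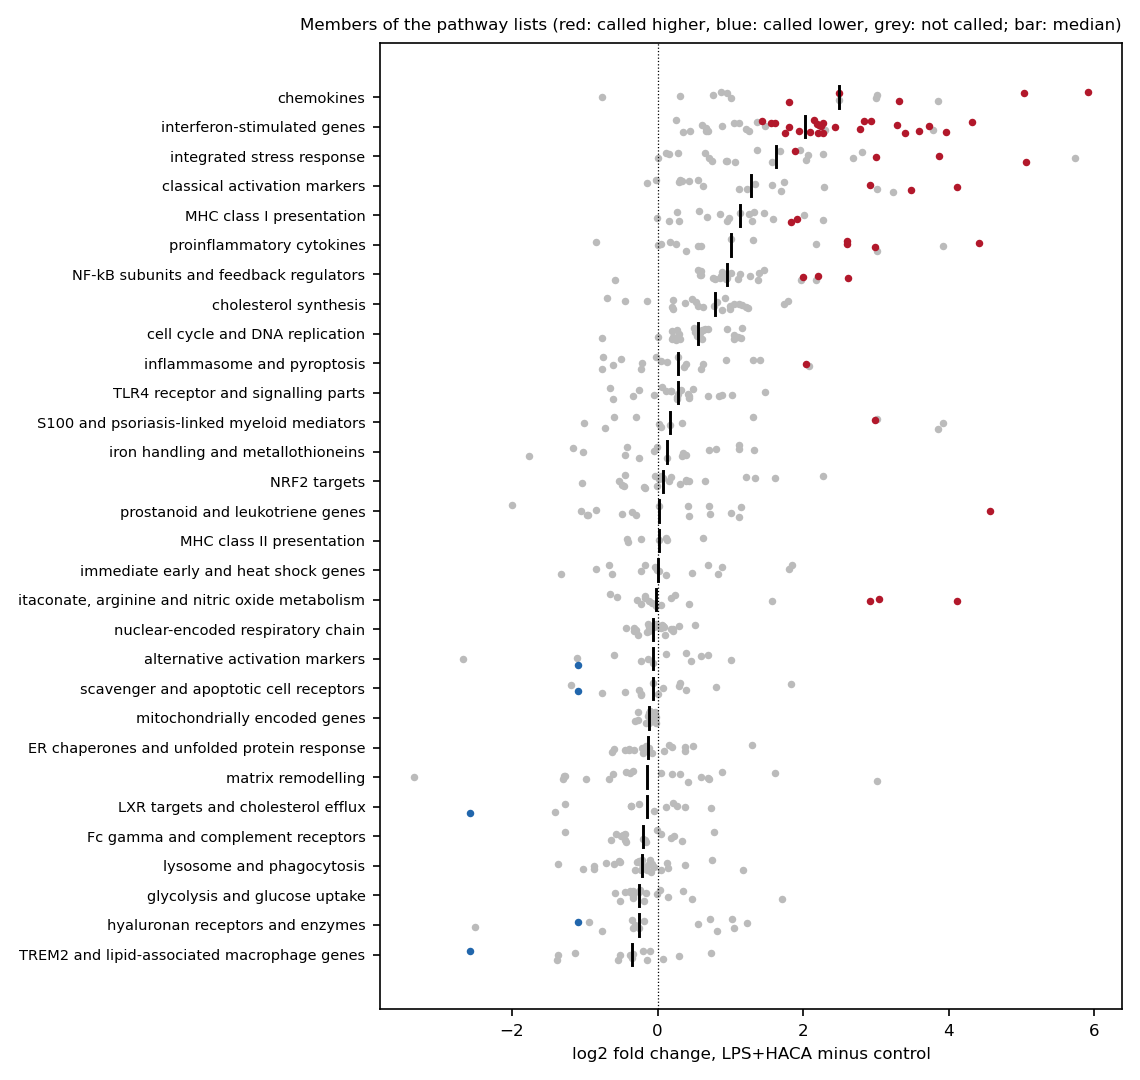
Log2 fold change of LPS+HACA against control for the tested members of the 30 pathway lists, with 1 point per gene (red called higher, blue called lower, grey not called) and a bar at the median of the list. Medians run from 2.49 for chemokines and 2.02 for interferon-stimulated genes to -0.35 for TREM2 and lipid-associated macrophage genes, and the median of all genes tested is 0.00.

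Several lists held no called gene in either direction by the edgeR test. Of 24 cholesterol synthesis genes 9 were higher and 0 lower at an unadjusted p under 0.05, and DESeq2 called 3 higher and limma-voom 0. In both libraries 14 lay above control (23.4% over all genes), and the median log2 fold change was 0.80. Hmgcs1, an early enzyme of the pathway, was at 4.58 and 3.24 CPM in control and 16.8 and 9.20 CPM in LPS+HACA, with a log2 fold change of 1.73 and a 95% interval of 0.83 to 2.63 (edgeR adjusted p = 0.097). It was chosen after its values were seen, and 2 members of the list were called higher without either LPS library. Of 27 lysosome and phagocytosis genes 13 lay below control in both libraries (23.1% over all genes), with a median of -0.21. At an unadjusted p under 0.05, 2 were higher and 5 lower (DESeq2 called 2 lower and limma-voom 0). The 26 nuclear-encoded respiratory chain genes had a median of -0.06 and 1 member higher at an unadjusted p under 0.05, and for 17 of them the 95% interval lay within a 2-fold change. The 15 mitochondrially encoded genes had log2 fold changes of -0.30 to -0.02, with 0 at an unadjusted p under 0.05. DESeq2 and limma-voom called 0 genes of either list.

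Cell cycle and DNA replication genes differed between the replicates of both groups, and 0 of them were called by edgeR, DESeq2 or limma-voom or had an unadjusted p under 0.05. The median level of the list was 14.2 CPM in control replicate 1 and 1.72 CPM in control replicate 2, and 24.7 and 1.96 CPM in LPS+HACA replicates 1 and 2. The median log2 fold change of the 24 members tested was 0.56, and ran from -1.17 without LPS+HACA replicate 1 to 2.11 without control replicate 1. Stromal cell markers moved the same way, with summed levels of 59.8 and 4.37 CPM in control and 58.6 and 3.99 CPM in LPS+HACA. Neutrophil markers went the other way, with 14.6 and 49.2 CPM in control and 8.44 and 44.8 CPM in LPS+HACA. The part of these replicate differences in the calls was not tested.

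Of 13 alternative activation markers tested 1 fell by edgeR, Stab1, while DESeq2 called 2 lower and limma-voom 1. None rose by edgeR, DESeq2 or limma-voom. At an unadjusted p under 0.05, 1 was higher and 4 were lower. Clec10a, a lectin of alternatively activated macrophages, was at 4.58 and 9.33 CPM in control and 1.15 and 1.01 CPM in LPS+HACA, with a log2 fold change of -2.67 and an edgeR adjusted p of 0.0659, and was chosen after its values were seen. Arg1, the arginine-degrading enzyme, was at 1.07 and 2.12 CPM in control and 1.15 and 1.56 CPM in LPS+HACA. Mrc1, the mannose receptor, was at 987 and 986 CPM in control, 646 and 658 CPM in LPS+HACA, and 931 and 607 CPM in LPS, with a log2 fold change of -0.60 and a 95% interval of -1.14 to -0.05 (edgeR adjusted p = 0.366). Il10, an anti-inflammatory cytokine, was at 3.89 and 5.16 CPM in control and 8.02 and 4.39 CPM in LPS+HACA, and these overlapped. Hmox1, the haem-degrading enzyme and an NRF2 target, was at 323 and 495 CPM in control and 170 and 429 CPM in LPS+HACA, which also overlapped.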

How the data were processed

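Per the labels' protocols, TruSeq libraries were made from poly-A selected RNA. The authors deposited raw read counts per transcript and FPKM values, per the file headers. DESeq2 1.26.0, edgeR 3.28.1, limma, STAR 2.5.4b, Trim Galore, CASAVA, GRCm38 and GRCh38 are named in the submitters' processing notes, with no role. Not given in the sources used here are the counting program, its strand setting and how it treated reads of several genes.

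The planned unit was the gene, so the deposited counts were summed per gene with GENCODE vM21: 141524 of 142647 transcripts matched, in 55263 genes, and the 1123 unmatched held at most 0.115% of a library. Genes of the type misc_RNA held 24.3% to 29.2% of the counts. Genes passing filterByExpr were fitted with TMM factors in 1 edgeR 4.0.16 quasi-likelihood model (R 4.3.3) over all 6 libraries, with group as the only term and 3 residual degrees of freedom. Calls use a Benjamini-Hochberg adjusted p under 0.05 over 17113 genes. The SE is taken from the log2 fold change and the F statistic (its size over the root of F), and intervals are at 95%. The procedure was tested on simulated counts drawn independently for each library. Same-numbered libraries of the data deviated together, so the simulation does not test the procedure under that pattern. DESeq2 1.42.0, limma 3.58.1 and limma on log2(FPKM + 0.1) and log2(FPKM + 1) were alternatives.

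The gene lists, the markers, the promoter motifs and the members were chosen with earlier results of these data known. Named were, among called genes without overlap and with a mean of at least 5 CPM in the higher group, the 12 largest rises and falls by fold and the 8 by CPM, up to 8 a direction also called against LPS, the 2 largest called members of each list in each direction, and 26 genes fixed by name. Predicted genes and pseudogenes were counted but not named, and a few other genes are not reported here by name. Shared sequence was searched as identical 50-base words between transcripts. Promoters are RefSeq's, build GRCm38.p6. Marker lists of keratinocytes, stromal cells, neutrophils, dendritic cells, erythroid cells, mast cells, B and plasma cells, and T and NK cells had 1, 4, 6, 6, 3, 1, 2 and 2 members tested. None was called by edgeR, DESeq2 or limma-voom. At an unadjusted p under 0.05, 1 dendritic cell marker was higher, and 1 dendritic, 1 erythroid and 1 T and NK cell marker were lower.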

Additional observations from a re-analysis of the deposited data

How the results depend on the processing

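All 197 calls kept their direction under every alternative in which they were tested (196 were tested in the fits of 4 libraries). The alternatives use the same libraries that gave the calls, so this is not a separate check. How many genes were called depended on the tool, the libraries and the filter, and the cause was not tested. With library totals 24 genes fell. DESeq2 called 467 higher and 199 lower, limma-voom 74 lower, and the fit with no filter 661 and 250. With only the 4 libraries compared, 324 rose and 159 fell. A 2-fold threshold left 24 and 2. On FPKM with a pseudocount of 0.1, 33 and 6 were called with a filter and 3 and 0 without it, and with a pseudocount of 1, 35 and 13 with a filter and 0 and 0 without it (2553 at an unadjusted p under 0.05). Leaving out 1 library gave 0 to 420 higher and 0 to 186 lower in edgeR. Without control replicate 1, an alternative chosen after seeing the data, DESeq2 gave 26 lower and limma-voom 0 in either direction. Over all genes the median log2 fold change was -0.0502 with upper-quartile factors, -0.00369 with DESeq2, -0.00471 with limma-voom, -0.0439 and -0.0165 on FPKM with a pseudocount of 0.1 with and without a filter, -0.0283 and -0.00477 with a pseudocount of 1, and -0.0127 to 0.0255 with 1 library left out.

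The replicate numbers were also fitted as a block. Same-numbered libraries deviated together, with correlations of 0.51 between control and LPS+HACA, 0.31 between control and LPS and 0.50 between LPS and LPS+HACA, but with 2 numbers a group and no label that ties them, pairing is not established. The replicate block gave 628 higher and 307 lower and a median log2 fold change of -0.00468. Under it Nfkbia, Trem2, Il1b, Ptgs1 and Cd14 passed the threshold, with adjusted p-values of 0.00276, 0.00699, 0.0183, 0.0239 and 0.0243, as did 11 cholesterol synthesis genes. The block with only the 4 libraries, chosen after seeing the data, gave 1533 higher and 1208 lower.

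Sign changes occurred only in genes that were not called, which the choice of the calls from the same libraries all but fixed. With 1 library left out, the log2 fold change ranged from -0.65 to 0.34 in Arg1, -0.0747 to 1.25 in Cd86, -1.26 to 0.0871 in Hmox1, -0.0208 to 0.83 in Il10, -1.03 to 0.87 in Il23a and -1.88 to 3.49 in Tnfaip6. With limma-voom Il23a was at -0.0562 and Tnfaip6 at 0.0733, and without control replicate 1 the log2 fold change of Cd86 was -0.0199, with Il23a at -0.44 and Tnfaip6 at 1.91. Il23a was at -0.19 with DESeq2 without control replicate 1, and at -0.11 and -0.0113 on FPKM with pseudocounts of 0.1 and 1. Depth limits Il23a and Tnfaip6, which were under 1 CPM in each of the 4 libraries compared.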

Other observations

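Genes outside the lists and the naming rule were read after their values were seen, and are given as values. Among rises, Mir155hg, the host transcript of miR-155, had 2 counts in control and 95 in LPS+HACA, and Hcar2, the receptor for niacin and ketone bodies, was at 4.08 and 3.17 CPM in control and 25.7 and 35.2 CPM in LPS+HACA (log2 fold change 3.07 ± 0.34, edgeR adjusted p = 0.0115). Malt1, a paracaspase of NF-kB signalling, was at 36.8 and 46.7 CPM in control and 150 and 164 CPM in LPS+HACA (1.91 ± 0.23), and Nod2, a sensor of bacterial cell wall fragments, at 1.32 and 1.19 CPM and 5.95 and 7.64 CPM (2.43 ± 0.35). Icosl, a costimulatory ligand of T cells, was at 11.3 and 14.1 CPM in control, 56.2 and 63.6 CPM in LPS+HACA and 71.2 and 96.1 CPM in LPS (2.24 ± 0.26). Fas, the death receptor, was at 4.39 and 4.10 CPM in control, 13.5 and 20.1 CPM in LPS+HACA (1.98 ± 0.29).

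Among falls, Rxra, the shared partner of the LXR and PPAR nuclear receptors, was at 102 and 117 CPM in control, 34.6 and 45.8 CPM in LPS+HACA and 11.4 and 12.3 CPM in LPS (log2 fold change -1.44 ± 0.24, edgeR adjusted p = 0.0344). Dab2, an endocytic adaptor, was at 30.6 and 25.3 CPM in control and 6.74 and 7.98 CPM in LPS+HACA (-1.92 ± 0.28). Slc36a1, a lysosomal amino acid transporter, was at 153 and 108 CPM in control and 44.5 and 27.2 CPM in LPS+HACA (-1.87 ± 0.32). None of these genes was called by edgeR without control replicate 1 or without control replicate 2.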
